A study of Mus musculus with 84 samples.

Results

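Epididymal white adipose tissue (eWAT) of diet-induced obese mice was examined for 10 genes whose products are secreted by fat cells or follow the mass of the depot. They are Lep, Adipoq, Retn, Cfd, Rbp4, Sfrp5, Apln, Mest, Npr3 and Retnla, chosen by name from the 48794 gene identifiers that each table lists, and Cfd and Rbp4 were also followed in liver. All 10 passed the filter on low values in eWAT, as did Cfd and Rbp4 in liver. The mice were male C57BL/6J, 22 weeks old at the start and fed a diet with 60% of its energy from fat, in every group including vehicle. They were injected subcutaneously once a day for 30 days with vehicle, with BI 456906, a peptide that activates both the glucagon receptor and the GLP-1 receptor, or with semaglutide, which activates the GLP-1 receptor. BI 456906 was given in doses of 3 nmol/kg, 10 nmol/kg, 20 nmol/kg and 30 nmol/kg, and semaglutide in doses of 20 nmol/kg and 100 nmol/kg. Each of these 7 groups held 6 eWAT and 6 liver libraries, 84 in all, out of 11 mice per group in the study. Fat mass, adipocyte size and circulating hormones were not analysed here, so the values are transcript levels and not measures of fat lost.

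White fat cells store triglyceride and also act as endocrine cells. The leptin transcript is known to rise as a fat cell enlarges and to drop with fasting or weight loss, while adiponectin, resistin and adipsin are products of differentiated fat cells in general. Other genes have been tied to expansion of the depot. Mest is induced in fat when mice are overfed. Sfrp5, a secreted inhibitor of Wnt signalling, has been reported to rise in obese adipose tissue, but not in every study.

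The whole reads recovered from the deposited values numbered 37573004 to 53996914 per eWAT library and 21676902 to 53869104 per liver library, and none of the 10 genes had fewer than 220 reads in an eWAT library. The tissue label was checked against marker lists. The 14 adipocyte genes (such as Plin1, which coats the lipid droplet, and the lipase Lipe) summed to between 16500 and 41500 TPM (a level per library that is corrected for transcript length) over the eWAT groups and to no more than 827 TPM in liver, and the 7 epididymal epithelium genes summed to no more than 5.06 TPM in eWAT. The adipocyte sum varied within groups. At 10 nmol/kg of BI 456906 it was 36700 and 35400 TPM in libraries 13 and 15 but 17500 to 23200 TPM in the other 4, and the same 2 libraries stood highest in that group for Adipoq, Npr3 and Sfrp5. Albumin, a liver transcript, was also present in eWAT, with 9.87 to 3680 TPM in vehicle and 12.1 to 548 TPM at 30 nmol/kg. A TPM value is a share of its library. In such bulk tissue fewer cells of a type and less RNA per cell cannot be told apart. Nothing in the labels says that each library came from a different mouse, so the p-values measure the spread between these samples.

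The number of genes past the threshold was compared for each treated group against vehicle in eWAT. Calls required a log2 fold change of 1 or more in either direction together with a Benjamini-Hochberg adjusted p (FDR) of at most 0.05, from limma/voom over all 18536 genes tested. The 10 genes were chosen with earlier results of these data known. The share of all genes called is therefore given beside each count as a description and not as an independent test. At 30 nmol/kg of BI 456906, 5 of the 10 genes were called, against 6.34% of all genes tested. Lep, Mest, Npr3 and Sfrp5 fell and Cfd rose. At 100 nmol/kg of semaglutide 5 of 10 were called, all of them lower, against 4.13% of all genes. Those were Lep, Mest, Npr3, Sfrp5 and Rbp4. At 20 nmol/kg of semaglutide 2 of 10 were called, Lep and Mest, against 2.24%. None was called at 3, 10 or 20 nmol/kg of BI 456906, where the backgrounds were 0.0%, 0.232% and 1.49%, and the numbers of these genes with an unadjusted p under 0.05 were 0, 5 and 3. With edgeR, and likewise with DESeq2, none was called at 3 or 10 nmol/kg and 2 were called at 20 nmol/kg, Lep and Mest. Sample quality weights called 3 at 10 nmol/kg, Lep, Mest and Rbp4. The backgrounds above are those of limma/voom without weights. The shares of all genes called at these doses with edgeR, DESeq2 or the weights are not given, so these counts have no background of their own. Over the BI 456906 doses, 5 of 10 genes had a slope at an FDR of at most 0.05 (Lep, Mest, Npr3 and Sfrp5 downward, Cfd upward), against 29.5% of all genes. The median log2 fold change of the 10 genes was -0.23, -0.84, -0.40 and -0.62 from the lowest to the highest BI 456906 dose, which does not follow the order of the doses, beside -0.03 to -0.01 for all genes. With semaglutide it was -0.81 and -1.12, beside -0.01 and 0.01.

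**Figure D1:**
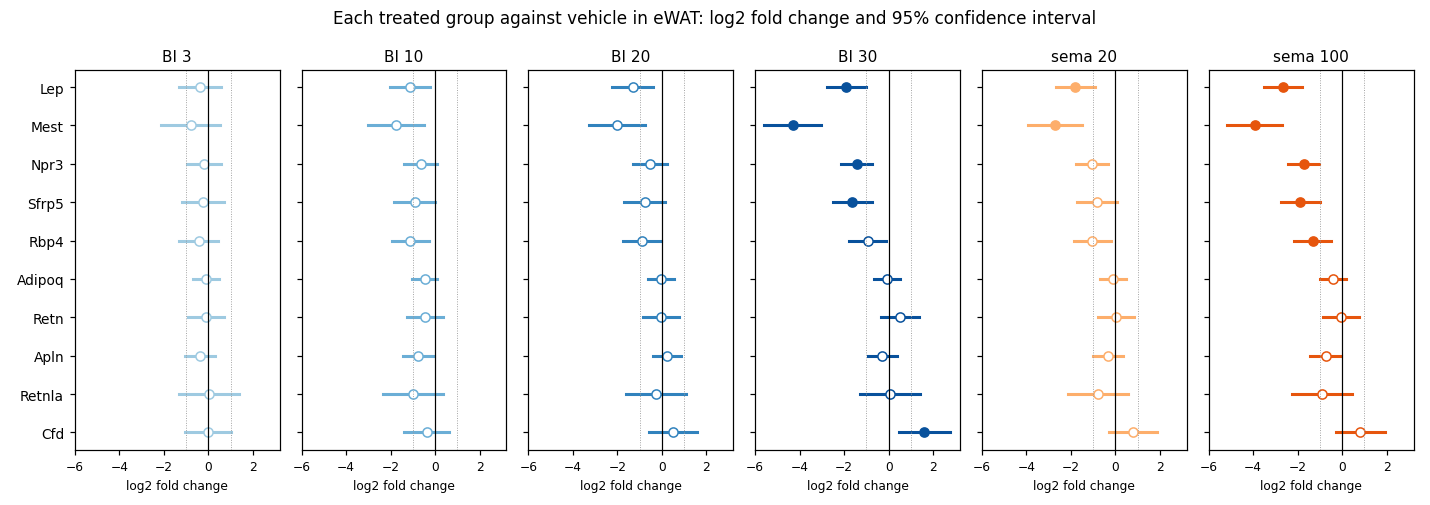
Log2 fold change (horizontal axes) with 95% confidence interval of the 10 genes in eWAT, one panel per treated group against vehicle (BI is BI 456906, sema is semaglutide, doses in nmol/kg). Filled points passed the threshold, open points did not, and dotted lines mark log2 changes of -1 and 1. Mest lies farthest to the left at the highest dose of each agent, at -4.31 and -3.93, and Cfd is the only gene with a filled point to the right of 0.

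Leptin (Lep, GRCm38 chr6:29060220-29073877), the hormone that reports fat stores to the brain, had between 810.0 and 1646 TPM in vehicle, with a median of 965 TPM. The median was 868 TPM at 3 nmol/kg of BI 456906 (range 470.0 to 1191), 434 TPM at 10 nmol/kg (239 to 832), 425 TPM at 20 nmol/kg (274 to 806) and, at the top dose of 30 nmol/kg, 306 TPM (170 to 527). The 20 nmol/kg semaglutide libraries had a median of 327 TPM (162.7 to 529), and at 100 nmol/kg it was 177 TPM (43.5 to 356). The 6 values at 20 and 30 nmol/kg of BI 456906 and at both semaglutide doses all lay below the lowest vehicle value, which 0.982%, 2.9%, 1.63% and 2.21% of all genes did in the same comparisons. Lep was 3.74-fold lower at 30 nmol/kg (log2 fold change -1.90 ± 0.43, SE, limma/voom FDR 0.00165), 3.51-fold lower at 20 nmol/kg of semaglutide (-1.81 ± 0.43, FDR 0.00842) and 6.27-fold lower at 100 nmol/kg (-2.65 ± 0.42, FDR 5.26e-05). At 20 nmol/kg of BI 456906 the log2 fold change was -1.32 ± 0.44 with an FDR of 0.0763, past the threshold under 6 of the alternatives that keep all libraries. The slope was -0.59 ± 0.12 per 10 nmol/kg (FDR 0.00044).

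Adiponectin (Adipoq, chr16:23146536-23158028), the most abundant of the 10 transcripts in vehicle by median TPM, is a hormone of mature fat cells that raises insulin sensitivity. Its vehicle values ran from 1320 to 3169 TPM with a median of 1590 TPM. The medians of the treated groups lay between 1140 TPM (10 nmol/kg of BI 456906, range 740.0 to 2576) and 1970 TPM (30 nmol/kg, range 1107 to 2183), and every treated group overlapped vehicle. No comparison was called. The log2 fold change was -0.07 at 30 nmol/kg (95% confidence interval -0.66 to 0.51), -0.47 at 10 nmol/kg (-1.04 to 0.10) and -0.42 at 100 nmol/kg of semaglutide (-0.99 to 0.16). Without the libraries over 1000 TPM of Alb, the albumin transcript of liver, it was -1.01 ± 0.36 at 10 nmol/kg (FDR 0.081) and -0.80 ± 0.35 at 100 nmol/kg of semaglutide (FDR 0.125). That fit left out 3 vehicle libraries, 1 at 3 nmol/kg and 1 at 10 nmol/kg. The adipocyte sum ran from 23400 to 41500 TPM over the vehicle libraries, and the part of adipocyte content in these shifts was not tested. None of the 5 genes tested for adiponectin assembly and secretion, which include Erp44 and Ero1l, was called at the highest dose of either agent.

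The ratio of Adipoq to Lep within a library does not depend on the scaling between libraries. It was 1.54 to 2.40 in vehicle with a median of 1.67. The median was 2.15 at 3 nmol/kg of BI 456906 (1.54 to 3.00), 2.80 at 10 nmol/kg (1.79 to 5.55), 3.39 at 20 nmol/kg (1.98 to 10.5) and 5.99 at 30 nmol/kg (3.64 to 9.56). With semaglutide it was 5.35 at 20 nmol/kg (2.66 to 15.4) and 7.03 at 100 nmol/kg (3.58 to 40.7). In the last 3 named groups all 6 libraries exceeded every vehicle library, and at 3, 10 and 20 nmol/kg of BI 456906 the numbers that did so were 1, 4 and 5 of 6. On the log2 scale the difference from vehicle was 1.85 at 30 nmol/kg, 1.70 at 20 nmol/kg of semaglutide and 2.23 at 100 nmol/kg (exact two-sided permutation p = 0.00216 for each, the smallest that 924 arrangements can give here, and 0.00433 after Benjamini-Hochberg adjustment over 6 comparisons). It was 1.26 at 20 nmol/kg of BI 456906 (exact permutation p = 0.00433, adjusted 0.00649) and 0.67 at 10 nmol/kg (p = 0.0173, adjusted 0.0208, and 0.0519 without vehicle library 4, where the difference was 0.63). At 3 nmol/kg the difference of 0.26 did not pass (exact permutation p = 0.18).

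**Figure D2:**
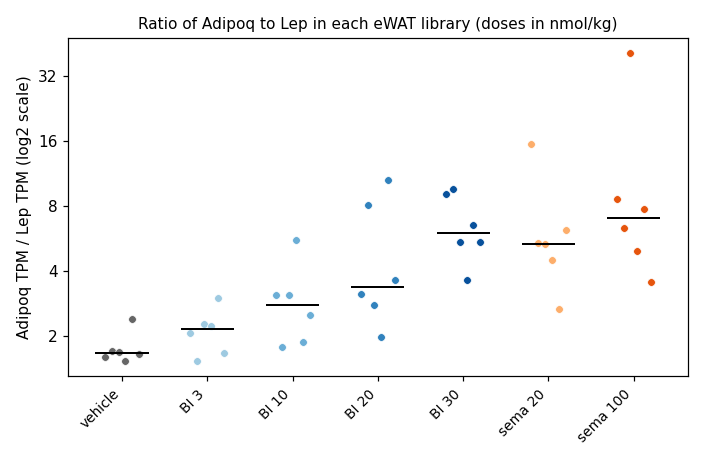
Ratio of Adipoq TPM to Lep TPM (vertical axis, log2 scale) in each eWAT library by treatment group (horizontal axis, doses in nmol/kg). Points are libraries and bars are group medians, which run from 1.67 in vehicle to 5.99 at 30 nmol/kg of BI 456906 and 7.03 at 100 nmol/kg of semaglutide.

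Resistin (Retn, chr8:3655770-3660110), a cysteine-rich hormone that in mice comes from fat cells, had 235 to 707 TPM in vehicle (median 423 TPM) and 340 to 772 TPM at 30 nmol/kg (median 665 TPM). The medians of the other 5 treated groups lay between 261 and 429 TPM, and every treated group overlapped vehicle. The log2 fold changes over the 6 treated groups lay between -0.47 and 0.49, none of them called. Retnla (chr16:48842551-48844461), a member of the same family that is known as a product of alternatively activated macrophages, spread widely within groups, from 51.2 to 669 TPM in vehicle and from 57.9 to 530.0 TPM at 30 nmol/kg. Its median was 465 TPM in vehicle and between 125 and 370 TPM in the treated groups, all of which overlapped vehicle. The fitted difference at 30 nmol/kg was 0.05 (log2) with a 95% confidence interval of -1.29 to 1.40, an interval that reaches past 2-fold either way.

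Adipsin (Cfd, chr10:79890853-79892655), the protease that starts the alternative complement pathway, went the other way from Lep at the highest BI 456906 dose. Its eWAT values ran from 414 to 1763 TPM in vehicle (median 953 TPM) and from 1266 to 4601 TPM at 30 nmol/kg (median 3870 TPM). At 30 nmol/kg 4 of the 6 values lay above all vehicle values, and libraries 28 and 29 lay within the vehicle range. Cfd was 3.03-fold higher there (log2 fold change 1.60 ± 0.57, FDR 0.0373) and its slope was 0.53 ± 0.16 per 10 nmol/kg (FDR 0.013). At 3 and 10 nmol/kg the medians were 817 and 826 TPM, near that of vehicle. The group at 20 nmol/kg was split, with 3692 and 6647 TPM in libraries 20 and 23 and 629 to 1081 TPM in the other 4. Libraries 20 and 23 also had the highest adipocyte sums of that group, 41200 and 38000 TPM. With semaglutide the values were 929 to 3778 TPM at 20 nmol/kg and 570.0 to 4787 TPM at 100 nmol/kg, and the log2 fold changes of 0.78 and 0.81 did not pass (FDR 0.429 and 0.322).

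The adipocyte sum had a median of 34800 TPM at 30 nmol/kg against 26100 TPM in vehicle, but the ranges overlapped (22600 to 37000 and 23400 to 41500 TPM). With libraries scaled to the adipocyte genes the change of Cfd was 1.66 ± 0.40 (limma/voom FDR 0.00581). The rise of Cfd at 30 nmol/kg was close to the threshold. It was lost when any one of vehicle libraries 1, 2 and 4 or of the 30 nmol/kg libraries 25, 26, 27 and 30 was left out (log2 fold changes of 1.38 to 1.63, FDR 0.0523 to 0.0946). It was also lost when the 5 eWAT libraries with over 1000 TPM of Alb, 3 of them vehicle, were left out (1.29 ± 0.69, FDR 0.226), as was the slope (0.47 ± 0.18, FDR 0.0735). Of the same pathway Cfi, the protease that cleaves C3b, was called lower in eWAT at 30 nmol/kg, at -3.19 ± 1.07 (FDR 0.0281), with 0.24 to 29.7 TPM in vehicle and 0.08 to 3.68 TPM at 30 nmol/kg. Cfi is also a liver gene, and the log2 fold change of Alb in the same comparison was -3.31 ± 1.33 (FDR 0.0653). The part of liver RNA in the Cfi result was not tested.

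Retinol binding protein 4 (Rbp4, chr19:38116629-38125281), the plasma carrier of vitamin A, is made by both liver and fat. In eWAT its values ran from 222 to 772 TPM in vehicle (median 511 TPM), from 104 to 414 TPM at 30 nmol/kg (median 263 TPM) and from 86.7 to 330.0 TPM at 100 nmol/kg of semaglutide (median 203 TPM). The other 4 treated groups had medians between 152 and 335 TPM, and every treated group overlapped vehicle. Rbp4 was 2.51-fold lower at 100 nmol/kg of semaglutide (log2 fold change -1.33 ± 0.41, FDR 0.0254), and at the other 5 doses its changes of -1.12 to -0.44 were not called. The call was lost without vehicle library 2, 5 or 6 or without 100 nmol/kg library 40 or 41 (-1.22 to -1.12, FDR 0.0619 to 0.0787), and when only that group and vehicle were fitted (-1.34, FDR 0.0552).

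Hepatocyte transcripts were also present in eWAT, with their highest group median in vehicle, as for Rbp4. The 8 hepatocyte markers summed to 38.4 to 8250 TPM in vehicle (median 2360 TPM), to 34.2 to 1400 TPM at 30 nmol/kg (median 159 TPM) and to 19 to 1790 TPM at 100 nmol/kg of semaglutide (median 138 TPM). Among treated groups the medians of this sum and of Rbp4 did not keep the same order. They were 204 and 152 TPM at 10 nmol/kg, and 159 and 263 TPM at 30 nmol/kg. Of the 8, Apoa2 and Apoc3 were called at 30 nmol/kg and Apoa2 at 100 nmol/kg of semaglutide, all lower, beside 6.34% and 4.13% of all genes. None of the 8 was at 0 in any eWAT library, and the lowest values were 3.47 TPM for Alb and 0.12 TPM for Tat. In liver the ratio of Rbp4 to Alb had a median of 0.113 over the 42 libraries. At that ratio the Alb in eWAT goes with 1.11 to 414 TPM of Rbp4 in the vehicle libraries, 0.501 to 58.1% of their Rbp4, and with 0.391 to 84.1 TPM at 100 nmol/kg of semaglutide. Taking it off left a median of 275 TPM in vehicle (218 to 720.0), 254 TPM at 30 nmol/kg (91.9 to 352) and 190 TPM at 100 nmol/kg of semaglutide (86.3 to 326). The medians left at 3, 10 and 20 nmol/kg of BI 456906 were 287, 145 and 198 TPM, and 215 TPM at 20 nmol/kg of semaglutide. The ratio in liver differed between groups, with a median of 0.125 in vehicle and 0.102 at 30 nmol/kg. Without the 5 libraries with over 1000 TPM of Alb, the log2 fold change of Rbp4 at 100 nmol/kg of semaglutide was -1.37 ± 0.51 (FDR 0.0669). Of the other retinol handling genes, 1 of 7 was called at 30 nmol/kg, the liver-made carrier Ttr (-3.96 ± 1.41, FDR 0.037), and 1 at 100 nmol/kg of semaglutide, Lrat, which esterifies retinol (-2.29 ± 0.77, FDR 0.0383). Of all genes 6.34% and 4.13% were called in these comparisons.

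**Figure D3:**
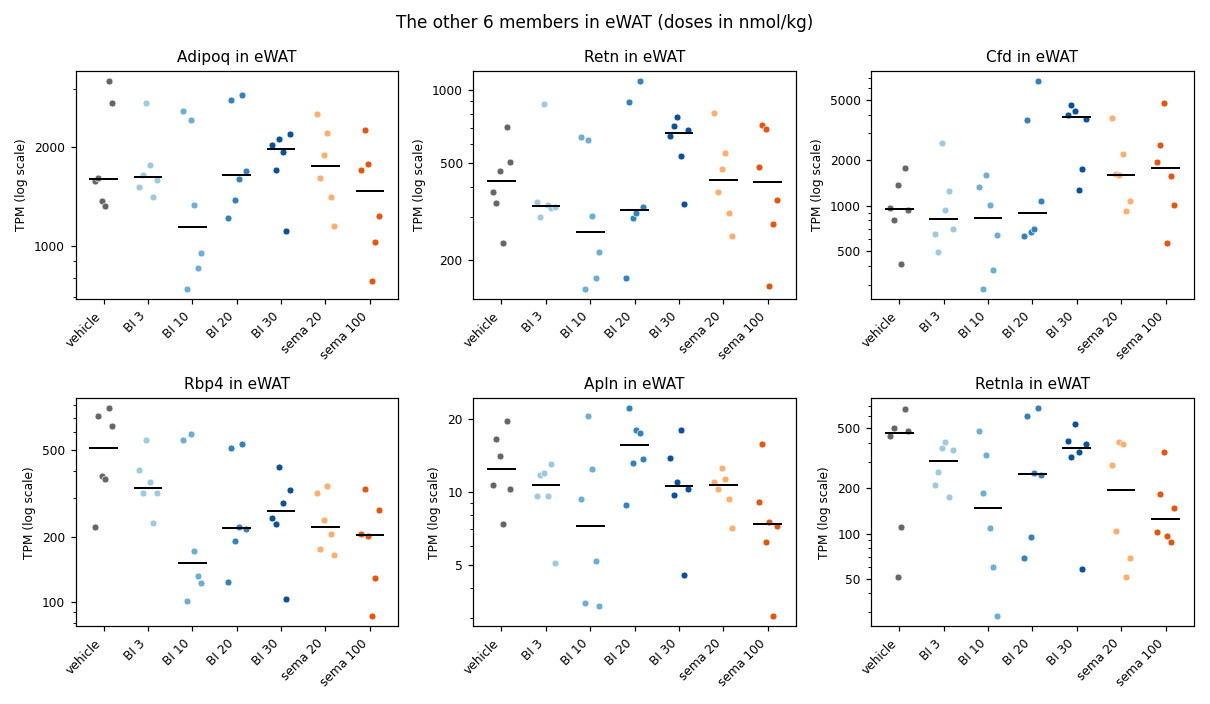
TPM (vertical axes, log scale) of Adipoq, Retn, Cfd, Rbp4, Apln and Retnla in each eWAT library by treatment group (horizontal axes, doses in nmol/kg). Points are libraries and bars are group medians. For Cfd, 4 of 6 libraries at 30 nmol/kg of BI 456906 lie above all vehicle libraries, while for Adipoq, Retn, Apln and Retnla every treated group overlaps vehicle.

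Secreted frizzled related protein 5 (Sfrp5, chr19:42197971-42202252), which binds Wnt ligands outside the cell, had a median of 330 TPM in vehicle (203 to 766), 146 TPM at 30 nmol/kg (58.4 to 268) and 107 TPM at 100 nmol/kg of semaglutide (33.6 to 293). At 3, 10 and 20 nmol/kg of BI 456906 the medians were 310, 141 and 230 TPM, and at 20 nmol/kg of semaglutide 217 TPM, each group overlapping vehicle. At 30 nmol/kg and at 100 nmol/kg of semaglutide 1 library lay within the vehicle range and the other 5 below it. Sfrp5 was 3.11-fold lower at 30 nmol/kg (log2 fold change -1.64 ± 0.43, FDR 0.00579) and 3.68-fold lower at 100 nmol/kg of semaglutide (-1.88 ± 0.42, FDR 0.00271), with a slope of -0.48 ± 0.12 per 10 nmol/kg (FDR 0.00345). The 100 nmol/kg call was lost when only that group and vehicle were fitted (-1.89, FDR 0.0544). Among 13 other Wnt ligands, antagonists and receptors, 1 was called at 30 nmol/kg, which is near the share of all genes called there (6.34%). It was Nkd1, an intracellular feedback inhibitor of the pathway (-1.19 ± 0.33, FDR 0.00794). At 100 nmol/kg of semaglutide Nkd1 (-1.47 ± 0.34, FDR 0.00345) and the ligand Wnt10b fell and Dkk3 rose, beside 4.13% of all genes called.

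Apelin (Apln, chrX:48025146-48034853), a peptide hormone of fat and vessels, was the least abundant of the 10, at 7.36 to 19.7 TPM in vehicle and 4.52 to 18 TPM at 30 nmol/kg. The medians of all 7 groups lay between 7.26 and 15.6 TPM, with overlap throughout. It was not called at any dose, with log2 fold changes of -0.75 to 0.22. Its receptor gene Aplnr fell at 30 nmol/kg, from 8.15 to 14.7 TPM in vehicle to 2.95 to 7.23 TPM without overlap (-1.49 ± 0.34, FDR 0.002), while at 100 nmol/kg of semaglutide its change of -0.39 was not called (FDR 0.391). Of all genes 2.9% lay wholly below vehicle at 30 nmol/kg. Aplnr was the only one of 10 receptors and binding partners tested that was called at 30 nmol/kg, beside 6.34% of all genes. The others included the leptin receptor Lepr (0.19 ± 0.19) and Cap1, a binding partner of resistin (-0.24 ± 0.17).

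Mest (chr6:30723547-30748465), an imprinted gene for a hydrolase-like protein of the endoplasmic reticulum that marks expanding fat, had the largest log2 fold change of the 10 genes at the highest dose of each agent. Its values ran from 174 to 498 TPM in vehicle with a median of 247 TPM. The median was 184 TPM at 3 nmol/kg of BI 456906 (105 to 227), 76 TPM at 10 nmol/kg (42.4 to 182), 96.9 TPM at 20 nmol/kg (14.95 to 191) and, at the top dose of 30 nmol/kg, 12.3 TPM (6.80 to 51.2). The 20 nmol/kg semaglutide libraries had a median of 37 TPM (25.5 to 127), and those at 100 nmol/kg one of 17.9 TPM (6.86 to 87.8). At 30 nmol/kg and at both semaglutide doses all values lay below the vehicle range. Those of 2.9% of all genes did so at 30 nmol/kg, and of 1.63% and 2.21% at 20 and 100 nmol/kg of semaglutide. Mest was 19.8-fold lower at 30 nmol/kg (log2 fold change -4.31 ± 0.62, FDR 1.27e-05), 6.52-fold lower at 20 nmol/kg of semaglutide (-2.70 ± 0.61, FDR 0.00487) and 15.2-fold lower at 100 nmol/kg (-3.93 ± 0.61, FDR 4.93e-05). The slope was -1.27 ± 0.17 per 10 nmol/kg (FDR 3.45e-06). The change of -2.03 ± 0.62 at 20 nmol/kg of BI 456906 had an FDR of 0.0506, and leaving out any one of 9 libraries brought it past the threshold. At the highest doses 6.34% (BI 456906) and 4.13% (semaglutide) of all genes were called. Of 11 other imprinted genes tested, among them its neighbour Copg2 and Peg3, none was called lower and 1 was called higher at the highest dose of each agent. That was Zdbf2, which was barely expressed (0.02 to 0.07 TPM in vehicle, 0.08 to 0.24 TPM at 30 nmol/kg).

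Npr3 (chr15:11839896-11907287), the receptor that clears natriuretic peptides and so dampens their lipolytic signal, had 178 to 348 TPM in vehicle with a median of 209 TPM. At 3, 10 and 20 nmol/kg of BI 456906 the medians were 199, 115 and 166 TPM, all overlapping vehicle. The median was 92.6 TPM at 30 nmol/kg (44.5 to 187), 118 TPM at 20 nmol/kg of semaglutide (73.8 to 170) and, at 100 nmol/kg, 80.8 TPM (24.4 to 162). Both semaglutide groups lay below the vehicle range, and at 30 nmol/kg library 28 lay within it. Of all genes 1.63% lay wholly below vehicle at 20 nmol/kg of semaglutide and 2.21% at 100 nmol/kg. Npr3 was 2.71-fold lower at 30 nmol/kg (log2 fold change -1.44 ± 0.35, FDR 0.00325) and 3.33-fold lower at 100 nmol/kg of semaglutide (-1.73 ± 0.35, FDR 0.000859). At 20 nmol/kg of semaglutide its change of -1.05 ± 0.36 had an FDR of 0.0706, and the slope over BI 456906 was -0.41 ± 0.10 per 10 nmol/kg (FDR 0.00228). Of 8 other genes of the natriuretic peptide system 4 were expressed enough to be tested, and none was called at the highest dose of either agent.

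**Figure D4:**
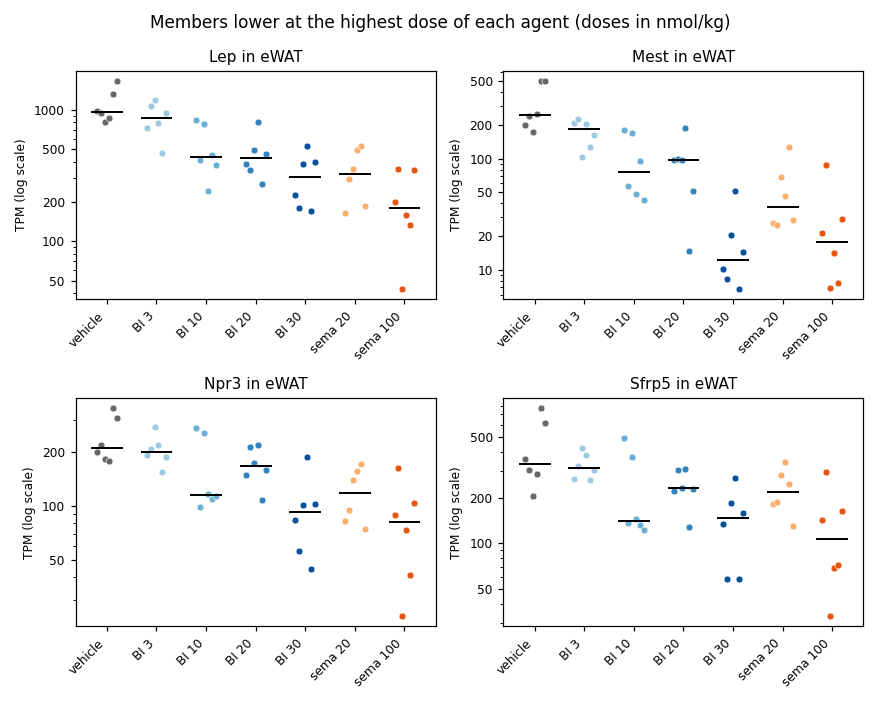
TPM (vertical axes, log scale) of Lep, Mest, Npr3 and Sfrp5 in each eWAT library by treatment group (horizontal axes, doses in nmol/kg). Points are libraries and bars are group medians. The medians of Mest fall from 247 TPM in vehicle to 12.3 TPM at 30 nmol/kg of BI 456906 and 17.9 TPM at 100 nmol/kg of semaglutide, and no library of these 2 groups reaches the vehicle range for Lep or Mest.

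Across the 42 eWAT libraries these 4 genes also followed each other, as a description over libraries that share treatment groups and adipocyte content. On log2(TPM + 1), Pearson's r was 0.95 between Sfrp5 and Npr3, 0.93 between Lep and Npr3 and 0.90 between Mest and Npr3. Adipoq went with Retn (0.90), Retn with Cfd (0.88), and Cfd and Mest had the lowest value of the 45 pairs (-0.52). Among 14284 genes, the 3 most like Lep were Lpgat1 (0.944), Gm13703 (0.937) and Slc5a7 (0.934), and those most like Mest were Slc5a7 (0.965), Oxtr (0.959) and Cyb5b (0.948). Npr3 was nearest to Bmp3 (0.977), Fgf13 (0.966) and Gm5627 (0.963), and Sfrp5 to Npr3 (0.954), Prelp (0.951) and Cryab (0.946). Adipoq was nearest to Amy1 (0.975, a gene with near-identical copies among which reads may be split), Atp6v0e2 (0.972) and Lipe (0.969), Retn to Hibadh (0.964), Aldh6a1 and Pccb (both 0.947), and Cfd to Bcat2 (0.938), Slc1a3 (0.937) and Klhl2 (0.936). Rbp4 was nearest to Pxmp4 (0.939), Gstm2 (0.931) and Prr16 (0.928), Apln to Bcl6b (0.858), Steap4 (0.857) and Blcap (0.848), and Retnla to Selenbp1 (0.848), Vmac (0.839) and Tspan7 (0.832).

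The 250 bases before the start of transcription are shown for 3 of the genes that fell and for Cfd, which rose, so that their sequences can be set side by side. They are from RefSeq (GRCm38.p6), which had an entry for all 10 genes, and are written 5′ to 3′ on the strand of the gene. Lep lies at chr6:29059971-29060220 on the plus strand, Mest at chr6:30737800-30738049 on the plus strand (the second of 3 listed starts), Sfrp5 at chr19:42202253-42202502 on the minus strand and Cfd at chr10:79890603-79890852 on the plus strand. Capitals mark matches on either strand to a TATA box (TATAAA), the C/EBP palindrome (TTGCGCAA) or its looser form (TTGCNNAA), a GC box (GGGCGG), a nuclear receptor half-site (AGGTCA), an E-box (CACGTG), or a cAMP response element (TGACGTCA) or its first letters (TGACG).
Lep: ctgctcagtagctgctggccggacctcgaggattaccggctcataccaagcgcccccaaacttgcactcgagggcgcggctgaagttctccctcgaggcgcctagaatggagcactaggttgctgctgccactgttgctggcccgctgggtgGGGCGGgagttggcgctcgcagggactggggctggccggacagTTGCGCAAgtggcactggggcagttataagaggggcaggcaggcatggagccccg
Mest: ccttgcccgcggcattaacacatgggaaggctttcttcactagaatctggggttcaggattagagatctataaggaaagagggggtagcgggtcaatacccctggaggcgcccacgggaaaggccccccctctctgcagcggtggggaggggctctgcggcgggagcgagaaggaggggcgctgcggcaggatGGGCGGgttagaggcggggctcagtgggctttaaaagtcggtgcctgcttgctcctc
Sfrp5: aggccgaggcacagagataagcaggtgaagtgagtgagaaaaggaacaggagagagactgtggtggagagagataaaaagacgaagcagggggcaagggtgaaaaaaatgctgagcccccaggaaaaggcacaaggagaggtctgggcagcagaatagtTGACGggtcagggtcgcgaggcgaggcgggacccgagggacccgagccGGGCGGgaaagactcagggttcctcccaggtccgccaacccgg
Cfd: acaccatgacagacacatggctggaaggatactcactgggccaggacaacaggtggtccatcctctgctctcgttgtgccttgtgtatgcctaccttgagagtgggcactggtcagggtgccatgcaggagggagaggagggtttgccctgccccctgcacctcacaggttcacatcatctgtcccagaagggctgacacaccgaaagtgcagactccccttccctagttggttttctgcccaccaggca
Lep held the C/EBP palindrome at position -55 from the start, which 0.164% of 32851 RefSeq windows of this length hold. The palindrome is also a match to the looser form, held by 9.56% of windows and found as well in windows of Rbp4 (-128), Retnla (-134) and another start of Mest (-155). The GC box stood at -98 in Lep, -57 in Mest and -43 in Sfrp5, is held by 32.7% of windows, and was also present at -144 in Apln, at -114 and -99 in Rbp4 and in the other Mest windows. The letters TGACG stood at -91 in Sfrp5, at -50 in the window of Npr3 and at -172 in one of Rbp4 and are held by 17.8% of windows. TATAAA, held by 12.4% of windows, was found in Rbp4 and Retnla, and AGGTCA, held by 14%, in Retnla. The other letters searched had no match in the 10 genes and are held by 6.02% (CACGTG) and 1.55% (TGACGTCA). Cfd had no match in this window. A match is a description of letters and no measure of binding.

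The agents were compared directly in eWAT at the matched dose of 20 nmol/kg. At this dose limma/voom called none of the 10 genes and 0.0% of all genes, none of the 10 had an unadjusted p under 0.05, and neither edgeR nor DESeq2 called any of them. BI 456906 minus semaglutide was 0.49 on the log2 scale for Lep (95% confidence interval -0.31 to 1.29), 0.68 for Mest (-0.39 to 1.74), 0.52 for Npr3 (-0.18 to 1.22), 0.05 for Sfrp5 (-0.81 to 0.91) and -0.27 for Cfd (-1.39 to 0.85). These intervals include 0. They reach past 1 for Lep, Mest and Npr3 and past -1 for Cfd, so a difference of 2-fold lies within the intervals of these genes. The highest doses, which differ, gave -1.90 and -2.65 for Lep and -4.31 and -3.93 for Mest against the same vehicle libraries. None of the 10 genes was called between 30 nmol/kg of BI 456906 and either semaglutide dose, or between the semaglutide doses, where the backgrounds were 0.0%, 0.00539% and 0.0%. One gene had an unadjusted p under 0.05 in each BI 456906 comparison, Mest against 20 nmol/kg (-1.61, 95% confidence interval -2.69 to -0.52, FDR 0.216) and Lep against 100 nmol/kg (0.74, 0.01 to 1.48, FDR 0.199). Between the semaglutide doses 4 did, Lep, Mest, Sfrp5 and Npr3, all lower at 100 nmol/kg, with an FDR of 0.969 each. edgeR and DESeq2 called none of the 10 genes in these comparisons, while sample quality weights called 1 gene in each BI 456906 comparison, Mest against 20 nmol/kg and Retnla against 100 nmol/kg. The share of all genes called with those weights is not given.

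In liver Cfd followed another course than in eWAT. Liver had 5.44 to 18.7 TPM of Cfd in vehicle (159 to 566 reads, median 11.7 TPM). At 3 nmol/kg of BI 456906 the median was 2.09 TPM (0.69 to 4.21) and at 10 nmol/kg it was 0.255 TPM (0.17 to 0.52). The 6 libraries at 20 nmol/kg held 0 to 4 reads each and those at 30 nmol/kg 0 to 1 reads. With semaglutide the median was 0.87 TPM at 20 nmol/kg (0.13 to 2.72) and 0.365 TPM at 100 nmol/kg (0.04 to 5.06). Each of the 6 treated groups lay wholly below vehicle. Over all liver genes the share that did so was 0.464%, 2.83%, 5.14% and 10.8% at the rising doses of BI 456906 and 4.97% and 5.51% at those of semaglutide.

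Cfd was called lower in liver in all 6 treated groups, where 0.432%, 1.75%, 3.1% and 6.9% (BI 456906) and 2.93% and 3.67% (semaglutide) of 15964 genes were called lower. It was 6.02-fold lower at 3 nmol/kg (log2 fold change -2.59 ± 0.38, limma/voom FDR 0.000495), 41.8-fold lower at 10 nmol/kg (-5.39 ± 0.68, FDR 1.98e-07), 13.6-fold lower at 20 nmol/kg of semaglutide (-3.77 ± 0.48, FDR 1.27e-07) and 30.3-fold lower at 100 nmol/kg (-4.92 ± 0.62, FDR 7.62e-08). At 30 nmol/kg every library was at or under the floor of 3 reads per library, which makes Cfd at least 113-fold lower than in vehicle. At the matched dose of 20 nmol/kg Cfd was lower with BI 456906 than with semaglutide (FDR 0.0246), a comparison in which 0.57% of liver genes were called. The 30 nmol/kg group was lower than 20 nmol/kg of semaglutide (FDR 0.00163, 2.06% of genes called) and than 100 nmol/kg (FDR 0.0246, 1.58% called). In the last comparison the groups met at 0.04 TPM, the lowest semaglutide value and the highest BI 456906 value. Adipocyte transcripts were scarce in vehicle liver, with 0.08 to 0.53 TPM of Adipoq (median 0.175) and 0.02 to 0.37 TPM of Plin1, and had lower medians in treated liver. These were 0 to 0.125 TPM for Adipoq and 0.015 to 0.065 TPM for Plin1. The 14 adipocyte genes summed to a median of 731 TPM in vehicle and 482 to 568 TPM in the treated groups. That list holds genes far above Adipoq in liver, such as Lipe (11.84 to 15.69 TPM in vehicle), so its sum is not a measure of fat cells there. The part of adipocyte RNA in the Cfd result was not tested. The ratio of Cfd to Adipoq was 21 to 117 in vehicle liver and 0.314 to 1.00 in vehicle eWAT.

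**Figure D5:**
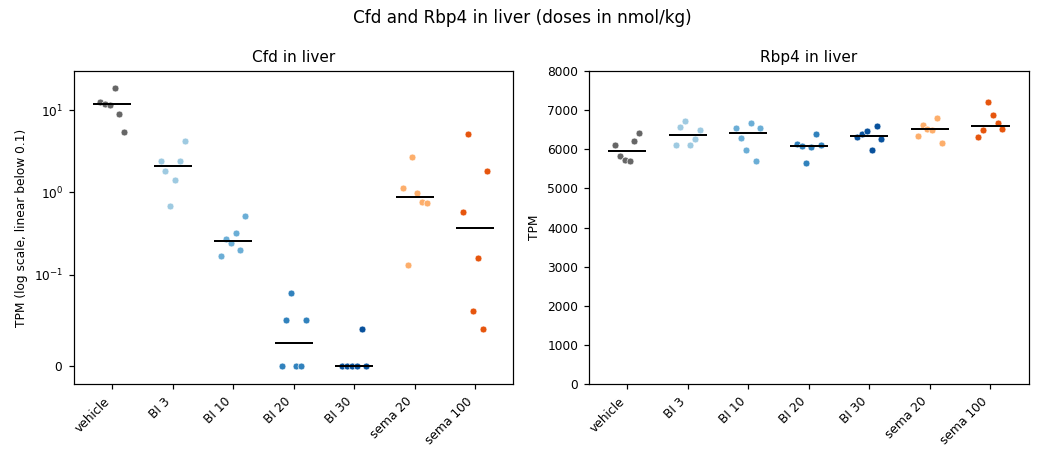
TPM (vertical axes) of Cfd, on a log scale that is linear below 0.1, and of Rbp4, on a linear scale from 0, in each liver library by treatment group (horizontal axes, doses in nmol/kg). Points are libraries and bars are group medians. Cfd is at 0 in 5 of 6 libraries at 30 nmol/kg of BI 456906, and the Rbp4 medians stay between 5960 and 6580 TPM.

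Rbp4 in liver, its main source, showed no called change. Its values ran from 5695 to 6410 TPM in vehicle, and the medians of all groups lay between 5960 and 6580 TPM. The log2 fold change was 0.00 at 30 nmol/kg (95% confidence interval -0.13 to 0.14) and 0.09 at 100 nmol/kg of semaglutide (-0.04 to 0.22). Whether the tissues responded differently was tested with an interaction term over the 15297 genes kept in both. The response of Cfd in eWAT minus that in liver was 10.59 on the log2 scale at 30 nmol/kg (95% confidence interval 7.57 to 13.61, limma/voom FDR 2.48e-08), where 14.2% of genes were called. That fitted size depends on the pseudocount, since liver was at the floor. The difference was 5.01 at 10 nmol/kg (FDR 0.00183), 8.69 at 20 nmol/kg (FDR 5.25e-06), 4.55 at 20 nmol/kg of semaglutide (FDR 0.00043) and 5.73 at 100 nmol/kg (FDR 0.000121), against 5.35%, 7.75%, 7.64% and 8.78% of genes called. At 20 nmol/kg of BI 456906 liver held 0 to 4 reads per library, so the size there also depends on the pseudocount. At 3 nmol/kg the difference of 2.56 did not pass (FDR 0.085, against 0.621%). For Rbp4 the difference passed at 100 nmol/kg of semaglutide (-1.42 ± 0.51, FDR 0.025) but not without eWAT library 40 of that group (-1.20, FDR 0.0557).

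Other secreted factors of fat and genes tied to its expansion were taken from lists. Of 24 adipose-secreted factors tested in eWAT, 2 were called higher and 5 lower at 30 nmol/kg, and 2 were called lower at 100 nmol/kg of semaglutide, beside 6.34% and 4.13% of all genes called, with list medians of -0.06 and -0.25. Vaspin (Serpina12), a serpin secreted by fat of obese rodents, fell at 30 nmol/kg (log2 fold change -4.43 ± 1.04, FDR 0.00232), from 0.02 to 1.83 TPM in vehicle to no more than 5 reads per library, so the size of its change depends on the pseudocount. Tnf, the inflammatory cytokine, also fell (-1.42 ± 0.37, FDR 0.00579), as did Ccl2, which draws in monocytes (-1.41 ± 0.52, FDR 0.0441). Lipocalin 2 (Lcn2), which binds iron carriers of bacteria, rose from 5.05 to 11.3 TPM in vehicle to 16.1 to 26.8 TPM (1.41 ± 0.40, FDR 0.0109). Sparc, a matrix protein, Hp (haptoglobin) and Agt (angiotensinogen, which rose) were the other 3 called. The hepatocyte markers in eWAT had a median sum of 2360 TPM in vehicle and 159 TPM at 30 nmol/kg. The part of liver RNA in the changes of Serpina12 and Hp was not tested. Sparc fell from 1983 to 4071 TPM in vehicle to 1094 to 1873 TPM at 30 nmol/kg, without overlap (-1.12 ± 0.19, FDR 8.16e-05), and was also called at 100 nmol/kg of semaglutide (-1.01 ± 0.19, FDR 0.000456). At 30 nmol/kg 2.9% of all genes lay wholly below vehicle.

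Of 9 caveola and fat expansion genes, 3 were called at 30 nmol/kg and the same 3 at 100 nmol/kg of semaglutide, all lower, beside 6.34% and 4.13% of all genes, with list medians of -0.56 and -0.88. They were Trp53inp2 (-1.56 ± 0.20, FDR 1.89e-06 at 30 nmol/kg), Bmp3 (-1.32 ± 0.35, FDR 0.00581) and Fgf13 (-1.22 ± 0.30, FDR 0.00357). None of the 6 caveola genes of the list (Cav1, Cav2, Cavin1, Cavin2, Cavin3 and Ehd2) was called. The list was made with these data known and is not independent of them.

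Markers of other cells were given in eWAT beside these results. None of the 14 adipocyte genes was called at the highest dose of either agent (list medians -0.03 and -0.45). Their sum had a vehicle median of 26100 TPM (23400 to 41500). It was 34800 TPM at 30 nmol/kg of BI 456906 (22600 to 37000) and 25000 TPM with 100 nmol/kg of semaglutide (16500 to 35100), with overlap throughout. Dividing each library by these genes in place of the usual scaling moved the median of all genes by 0.38 (log2) at 100 nmol/kg of semaglutide and by 0.05 at 30 nmol/kg. With that scaling Lep (-2.26), Mest (-3.55), Npr3 (-1.35) and Sfrp5 (-1.50) were called at 100 nmol/kg of semaglutide and Rbp4 (-0.95, FDR 0.0108) was under the limit on the size of the change, against -1.33 relative to the shift. None of 8 general macrophage markers was called. Of 8 markers of resident or alternatively activated macrophages, Lyve1 (2.17 ± 0.48, FDR 0.00125) and Cd163 (1.60 ± 0.39, FDR 0.00343) rose and Arg1 fell (-2.53 ± 0.90, FDR 0.0377) at 30 nmol/kg, beside 6.34% of all genes called. These 8 genes summed to a median of 970 TPM in vehicle liver and 485 TPM in vehicle eWAT. The part of liver RNA in the Arg1 result was not tested. Of 6 mesothelial markers, which belong to the lining of the depot, 4 rose at 30 nmol/kg, where 6.34% of all genes were called. They were Upk1b (2.11 ± 0.58), Upk3b (1.93 ± 0.60), Msln (1.85 ± 0.56) and Krt19 (1.45 ± 0.55). Summed over the list, the level was 9.80 to 141 TPM in vehicle libraries and 66.2 to 219 TPM in those at 30 nmol/kg. Whether that bears on the changes of the 10 genes was not tested. The 8 macrophage markers summed to 4150 to 10400 TPM in vehicle and 7780 to 13800 TPM at 100 nmol/kg of semaglutide. No gene of the eosinophil, endothelial, epididymal or fibroblast lists was called at either highest dose.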

How the data were processed

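Epididymal fat and liver RNA was sequenced in 42 libraries per tissue. For each tissue the authors deposited read values per gene that are divided by a size factor per library (a scaled signal, not raw counts) and TPM values. The submitters' processing notes name STAR 2.5.2b, RSEM 1.3.0, featureCounts 1.5.1 and FastQC 0.11.5 with GRCm38. Per the study's methods featureCounts gave the counts for its differential test. How the deposited values were scaled and what the other tools were run for are not given in the sources used here, and the labels and the study's methods describe different library kits. Whole reads were recovered from the deposited signal for 100.0% of values (tolerance 0.01 reads).

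Of 48794 identifiers 48348 had a symbol. The study ran limma/voom on featureCounts counts. Here limma/voom (limma 3.58.1, R 4.3.3) was run on the deposited scaled read values of all 42 libraries of a tissue with the study's thresholds, and the rest was chosen here: TMM factors, a pseudocount of 0.5 and the filterByExpr filter, which kept 18536 genes in eWAT and 15964 in liver. The log2 fold changes are on that scale. As in the study, calls required a change of at least 1 and a Benjamini-Hochberg FDR of at most 0.05 over all genes kept, except for slopes (FDR alone). The script was tested on simulated data. Counting tests on the recovered reads (edgeR 4.0.16 and DESeq2 1.42.0) called 1451 and 1536 genes in eWAT at 30 nmol/kg of BI 456906, against 1176 by limma/voom. Ratios were compared with an exact permutation test. Alternatives were other normalizations, filters, pseudocounts, tests and sample sets, and leaving out each library.

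The 10 genes and all lists were chosen with earlier results of these data known. Named beside the 10 genes were the 3 most similar genes of each and up to 4 called genes per list at 30 nmol/kg. Genes called only at 100 nmol/kg of semaglutide (Lrat, Wnt10b, Dkk3), Sparc, and the examples that were not called, Lepr, Cap1, Copg2, Peg3, Erp44 and Ero1l were named after their values were seen.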

Additional observations from a re-analysis of the deposited data

Results flagged for a closer look

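Within groups of 6 libraries, 83 groups of values were tested for a library far from the others by Dixon's criterion, and 7 held one, where chance flags about 1 in 20. Library 9 at 3 nmol/kg of BI 456906 stood above the rest of its group for Adipoq (2724.07 TPM), Retn (874.28 TPM) and Cfd (2590.52 TPM) in eWAT. Mest was highest in library 28 at 30 nmol/kg (51.19 TPM) and in library 38 at 100 nmol/kg of semaglutide (87.76 TPM), both still below every vehicle library. At 100 nmol/kg of semaglutide Retnla stood apart in eWAT library 39 (347.46 TPM), and Cfd in liver library 80 (5.06 TPM). With these libraries left out one at a time, no call for these genes in these groups changed.

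The response to treatment differed between eWAT and liver, by the interaction test of limma/voom, for Cfd at 10 nmol/kg (5.01 on the log2 scale, higher in eWAT), 20 nmol/kg (8.69) and 30 nmol/kg (10.59) of BI 456906 and at 20 nmol/kg (4.55) and 100 nmol/kg (5.73) of semaglutide. It also differed for Rbp4 at 100 nmol/kg of semaglutide (-1.42). The sizes for Cfd at 20 and 30 nmol/kg of BI 456906 depend on the pseudocount, since liver held 0 to 4 and 0 to 1 reads per library there.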

How the results depend on the processing

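Of 3780 values of single genes under an alternative, 3648 kept their direction and their side of the threshold, 18 lost a call, 34 gained one and 80 changed sign. All sign changes were in values that were not called. No paired analysis was possible because the library numbers differ in every group and tissue. The causes of the changes given here were not tested, and liver Cfd at 20 and 30 nmol/kg of BI 456906 is limited by depth.

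The number of the 10 genes called in eWAT moved as follows. The shares of all genes called under these alternatives are not given beside the counts. At 10 nmol/kg of BI 456906 it was 3 with sample quality weights (Lep, Mest and Rbp4) and 0 to 1 when a library was left out. At 20 nmol/kg it was 1 with the 2 groups alone, 2 with DESeq2, 2 with edgeR, 2 with limma on log2(TPM + 0.1) or log2(TPM + 1), 2 with no filter, 1 with quality weights, and 0 to 2 when a library was left out (1 without vehicle library 1, without 10 nmol/kg library 13 or 15, without 20 nmol/kg library 22, without 30 nmol/kg library 28 or 29 and without semaglutide library 35 or 38, and 2 without semaglutide library 39). At 30 nmol/kg it was 4 without the libraries over 1000 TPM of Alb and 4 to 5 with a library left out (Cfd lost each time). At 20 nmol/kg of semaglutide it was 4 with DESeq2 (Npr3 and Rbp4 gained), 3 with edgeR (Npr3), 3 with quality weights (Rbp4) and 2 to 3 with a library left out (Npr3). At 100 nmol/kg it was 3 with the 2 groups alone (Rbp4 and Sfrp5 lost), 4 with adipocyte scaling, 4 without the libraries over 1000 TPM of Alb and 4 to 5 with a library left out (Rbp4 lost each time). Quality weights called 1 for 30 nmol/kg of BI 456906 against each semaglutide dose.

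Liver Rbp4 changed sign near 0. At 10 nmol/kg it was 0.07 on log2(TPM) with either pseudocount, 0.00 with quality weights and -0.07 to 0.02 with a library left out. At 20 nmol/kg it was 0.02 on log2(TPM), and at 30 nmol/kg -0.06 with library size alone and -0.02 to 0.07 with a library left out. The eWAT minus liver difference passed in edgeR for Cfd at 3 nmol/kg (2.56) and Rbp4 at 20 nmol/kg of semaglutide (-1.15). With a library left out the Rbp4 difference ran from -1.36 to -0.88 at 10 nmol/kg (past the threshold without vehicle library 1 or 10 nmol/kg library 13 or 15), from -1.28 to -0.91 at 20 nmol/kg of semaglutide (past it without vehicle library 1) and from -1.64 to -1.20 at 100 nmol/kg (lost without library 40). The log2 ratio of Adipoq to Lep at 10 nmol/kg ran from 0.47 to 0.79.

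Uncalled eWAT changes also crossed 0. Adipocyte scaling gave Adipoq 0.08, 0.00 and 0.04 at 3 and 20 nmol/kg of BI 456906 and 20 nmol/kg of semaglutide and a slope of -0.01, Retn 0.06 at 3 nmol/kg and 0.31 at 100 nmol/kg of semaglutide, Cfd 0.15 at 3 nmol/kg and Retnla a slope of 0.00. Quality weights gave Adipoq 0.17 and 0.05 at 30 nmol/kg and 20 nmol/kg of semaglutide, Retn 0.29 at 100 nmol/kg and Retnla -0.02 at 3 nmol/kg. DESeq2 and edgeR gave Retn 0.18 and 0.17 at 20 nmol/kg and 0.03 and 0.04 at 100 nmol/kg of semaglutide, Cfd 0.07 and 0.08 at 3 nmol/kg, Retnla -0.39 and -0.38 at 3 nmol/kg and -0.17 and -0.18 at 30 nmol/kg, and edgeR an Adipoq slope of 0.00. Without the libraries over 1000 TPM of Alb, an alternative chosen after seeing the data, the Adipoq slope was -0.07, Retn -0.29 at 20 nmol/kg of semaglutide, and Retnla -0.85 at 3 nmol/kg and -0.90 at 30 nmol/kg with a slope of -0.17. Leaving out each library gave Adipoq -0.23 to 0.06, -0.16 to 0.13 and -0.16 to 0.12 at 3, 20 and 30 nmol/kg, -0.21 to 0.07 at 20 nmol/kg of semaglutide and a slope of 0.00 to 0.06. It gave Cfd -0.31 to 0.16 at 3 nmol/kg, Retn -0.35 to 0.04 and -0.30 to 0.22 at 3 and 20 nmol/kg and -0.14 to 0.21 and -0.24 to 0.20 at 20 and 100 nmol/kg of semaglutide, and Retnla -0.46 to 0.29, -0.73 to 0.10 and -0.40 to 0.51 at 3, 20 and 30 nmol/kg with a slope of -0.07 to 0.15.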

Other observations

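Mest was also detected in liver. It had 1.46 to 3.80 TPM in vehicle (median 1.99 TPM), 0.76 to 1.41 TPM at 30 nmol/kg of BI 456906 (median 0.885 TPM) and 0.66 to 1.60 TPM at 100 nmol/kg of semaglutide (median 0.895 TPM). The 30 nmol/kg values all lay below vehicle, as did those of 10.8% of the genes tested in liver. The log2 fold change was -1.30 ± 0.27 at 30 nmol/kg (limma/voom FDR 9.14e-05) and -1.28 ± 0.27 at 100 nmol/kg of semaglutide (FDR 0.000174), where 6.9% and 3.67% of genes were called lower. The difference between the tissues was not tested for Mest.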
